A study of Mus musculus with 2 samples.

Results

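Retinol and retinaldehyde metabolism was followed through 9 genes for retinoid dehydrogenases, binding proteins and the uptake receptor, chosen by the gene symbol that the array's annotation gives to each probe: Rbp4, Stra6, Adh1, Adh7, Rdh10, Aldh1a1, Aldh1a2, Crabp1 and Crabp2. Each of the 9 was represented by 1 probe, among 16637 genes named on the array. The cells were mouse embryonic fibroblasts (MEFs) labelled as knockout for Xbp1, a transcription factor gene of the unfolded protein response, and both groups carry that knockout. Total RNA came from confluent cells on day 0 (1 array) and from cells on day 3 of adipogenesis, or fat cell formation, induced with drugs (1 array). Per the labels, the inducing medium was given for the first 72 h and held insulin at 10 µg/ml, IBMX (a phosphodiesterase inhibitor) at 0.25 mM, troglitazone (a PPARγ agonist) at 5 µM and DXM at 5 µM. Fibroblasts with intact Xbp1 were not analysed here, and the labels do not say how many embryos or lines the fibroblasts came from. With 1 array in each group there is no replicate to check any difference against, and no test was run.

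Retinol (vitamin A) travels in blood bound to retinol-binding protein and enters some cells through the receptor STRA6. Alcohol dehydrogenases and short-chain retinol dehydrogenases oxidise it to retinaldehyde in a reversible step, and retinaldehyde dehydrogenases of the ALDH1A family then form retinoic acid, which cannot be turned back. Cellular retinoic acid-binding proteins carry the acid in the cytosol, nuclear receptors of the RAR and RXR families respond to it, and CYP26 enzymes break it down. Fat tissue stores retinoids, its cells secrete retinol-binding protein, and retinoic acid given early is known to block the differentiation of preadipocytes.

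The retinol-oxidising gene Adh1 and the retinaldehyde-oxidising gene Aldh1a1 stood well above their day 0 signals on day 3, by 9.33-fold and 5.90-fold after quantile normalization. The cytosolic binding protein gene Crabp1 was 1.91-fold higher. By the same normalization Rdh10, Rbp4 and Crabp2 lay within 1.11-fold of their day 0 signals, less than the scatter of repeated spots. Stra6, Adh7 and Aldh1a2 were dim on both days. The members were proposed with these differences in view, so their values are a description and carry no test.

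The sequences just before the start sites of Adh1, Aldh1a1 and Crabp1 are shown because these 3 had the largest positive differences among the members. They are the 250 bases before each start, from RefSeq's gene models on mouse build GRCm38.p6, all on the plus strand, and RefSeq gives Aldh1a1 a pair of starts. Capitals mark matches to the motifs spelled out after the sequences. Adh1 is chr3:138277335-138277584, the first Aldh1a1 start is chr19:20492333-20492582, the second is chr19:20601718-20601967 and Crabp1 is chr9:54764498-54764747.
Adh1: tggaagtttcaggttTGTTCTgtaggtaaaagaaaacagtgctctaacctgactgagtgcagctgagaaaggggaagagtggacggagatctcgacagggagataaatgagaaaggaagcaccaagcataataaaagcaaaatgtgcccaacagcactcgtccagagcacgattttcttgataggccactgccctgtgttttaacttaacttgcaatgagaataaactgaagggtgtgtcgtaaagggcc
Aldh1a1, first start: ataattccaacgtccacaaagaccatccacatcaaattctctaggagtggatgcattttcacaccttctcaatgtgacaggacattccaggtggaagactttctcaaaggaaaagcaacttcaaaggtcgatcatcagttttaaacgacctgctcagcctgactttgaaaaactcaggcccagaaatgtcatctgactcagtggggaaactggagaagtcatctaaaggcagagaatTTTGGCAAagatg
Aldh1a1, second start: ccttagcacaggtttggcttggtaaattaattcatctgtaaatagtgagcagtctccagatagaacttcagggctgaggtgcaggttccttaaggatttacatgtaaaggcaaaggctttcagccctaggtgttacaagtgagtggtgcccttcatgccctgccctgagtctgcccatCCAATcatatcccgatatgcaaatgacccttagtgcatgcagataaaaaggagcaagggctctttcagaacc
Crabp1: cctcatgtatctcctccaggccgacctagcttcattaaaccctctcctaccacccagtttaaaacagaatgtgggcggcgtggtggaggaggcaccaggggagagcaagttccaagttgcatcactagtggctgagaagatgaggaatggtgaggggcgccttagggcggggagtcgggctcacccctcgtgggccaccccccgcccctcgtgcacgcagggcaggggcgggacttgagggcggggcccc

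Both strands were searched for 9 motifs of nuclear receptors, of factors that answer to cAMP or glucocorticoids, and of general promoter elements. These were the nuclear receptor half-sites AGGTCA and AGTTCA, the cAMP element TGACGTCA and its shorter form TGACG, the glucocorticoid half-site AGAACA, also as a palindrome of this site with 3 bases in the middle,, the C/EBP pattern TTGCNNAA, the TATA box TATAAA and the CCAAT box CCAAT. Each shorter form lies within its full motif. Adh1 held 1 match, AGAACA on the minus strand from 235 to 230 bases before the start, a word found in 16.1% of 32851 such promoters. The first Aldh1a1 start held 1 match to TTGCNNAA, 13 to 6 bases before it, against 9.56% of promoters, and the second held 1 CCAAT box, 72 to 68 bases before it, against 33.8%. None of the 9 motifs matched in the Crabp1 window. No motif was shared between the windows of Adh1 and Aldh1a1. A match is a description of the letters and not a binding site. The Crabp1 window had 63.6% G and C, above the median of 52.4% over all promoters, and the Adh1 window had 44.8%.

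Signals are linear fluorescence intensities, and a probe's level is set only against its own level on the other day. As deposited, the median gene probe read 78 on day 0 and 166 on day 3, while the 7402 empty spots read 0 in the median on either day, with 95th percentiles of 7 and 9. The arrays were therefore put on a common distribution by quantile normalization, and both the deposited and the normalized value are given for each member. A gene was called detected where its normalized signal passed 122, the median of all gene probes, on at least 1 day. By this measure 7 of the 9 members were detected, 6 on both days and Stra6 on day 0 only. Over the whole array 10656 of 16637 genes were detected, and this is the background for every detection count below. Nothing is read from the 7 of 9. Of the fibroblast markers listed, 15 of 15 were detected, among them Dcn, saturated on both days, Vim, saturated on day 0, and Col3a1. At least 2-fold higher on day 3 were Fn1 (4.16-fold), Postn (4.84-fold) and Lum (3.04-fold). Col1a1 (2.09-fold) and S100a4 (2.95-fold) were lower. These are 3 and 2 of the 15, where 12.8% and 10.3% of all detected genes were.

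The carrier and the receptor come first. Rbp4, the serum carrier of retinol, read 1246 on day 0 and 1610 on day 3 as deposited, and 1507.5 and 1369 after normalization. The normalized log2 difference, day 3 minus day 0, was -0.14 against a repeat-spot SD of 0.42. Its sign depended on the scale, since without normalization the difference was 0.37 while all detected genes had a median of 0.67. Stra6, the membrane receptor for the carrier, read 97 and 84 as deposited. After normalization it read 149.5 on day 0, just above the threshold of 122, and 54.5 on day 3. On the normalized scale the day 0 signal was therefore at least 1.23-fold above that of day 3. This bound, -0.29 on the log2 scale, lay within the repeat-spot SD of 0.43. The log2 difference as read, -1.46, rests on a day 3 signal below the threshold, and the deposited readings differed by -0.21.

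**Figure D1:**
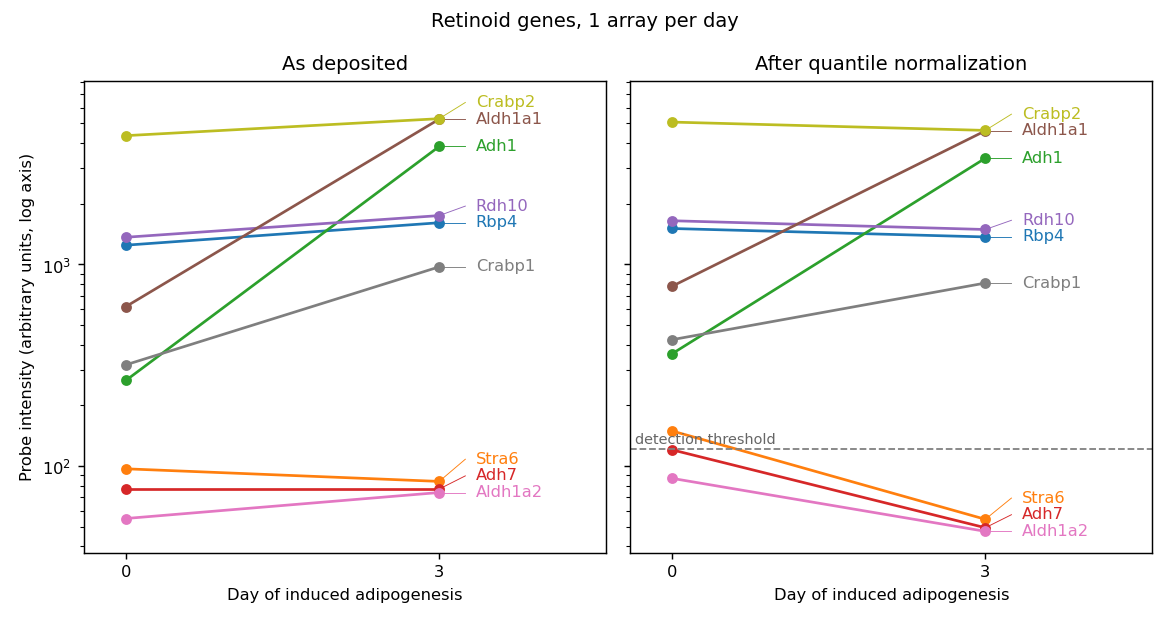
Intensity of the 9 retinoid probes on day 0 and day 3 (log axis, arbitrary units), as deposited on the left and after quantile normalization on the right, with 1 array per day and the detection threshold of 122 as a dashed line. Adh1 and Aldh1a1 climb steeply in both panels, Rdh10, Rbp4 and Crabp2 tilt slightly up on the left and slightly down on the right, and the 3 dim probes lie at the bottom.

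The retinol dehydrogenases differed from one another. Adh1, a cytosolic alcohol dehydrogenase that oxidises retinol along with ethanol, read 266 on day 0 and 3847 on day 3 as deposited, and 360.5 and 3362.75 after normalization. Its log2 difference of 3.22 exceeded the repeat-spot SD of 0.42, or 0.58 when pooled over features, and only 29 of 10656 detected genes had a larger positive difference. Rdh10, the microsomal enzyme that supplies most retinaldehyde in the embryo, read 1364 and 1747 as deposited and 1647.25 and 1490.5 after normalization. Its difference of -0.14 lay within the repeat-spot SD of 0.42 and became 0.36 without normalization and -0.73 under median scaling. Adh7, a class of alcohol dehydrogenase best known from stomach and other epithelia, read 77 on both days as deposited. Its normalized signals of 120.5 and 49.5 stayed under the threshold, the first of them by a narrow margin, and no fold is given.

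Of the retinaldehyde dehydrogenases, 1 of the listed pair was detected. Aldh1a1, the main ALDH1A enzyme described in fat tissue, read 618 on day 0 and 5255 on day 3 as deposited, and 779 and 4598 after normalization. Its log2 difference was 2.56 against a repeat-spot SD of 0.42, the 102nd largest positive difference among detected genes. Aldh1a2, the enzyme that makes retinoic acid in much of the early embryo, read 55 and 74 as deposited and 87 and 47.5 after normalization. It stayed below the threshold on both days, although both deposited readings exceeded the 95th percentile of empty spots.

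The cytosolic binding proteins made up the last pair. Crabp1, which binds retinoic acid and is linked to its turnover, read 318 and 973 as deposited and 423.5 and 808.75 after normalization. Its log2 difference of 0.93 exceeded the median-based repeat-spot SD of 0.34 and the pooled SD of 0.74, and fell just short of 2-fold. It lay between 0.52 under median scaling and 1.61 without normalization over the settings tried, and it was 1.01 in the authors' deposited values, so it stood on either side of 2-fold. Crabp2, which hands retinoic acid to nuclear receptors, read 4351 and 5282 as deposited and 5080.25 and 4620.5 after normalization, a difference of -0.14 within the repeat-spot SD of 0.34. The members of this pair thus differed by unequal amounts between the days, and whether that gap exceeds the variation between cultures was not tested.

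**Figure D2:**
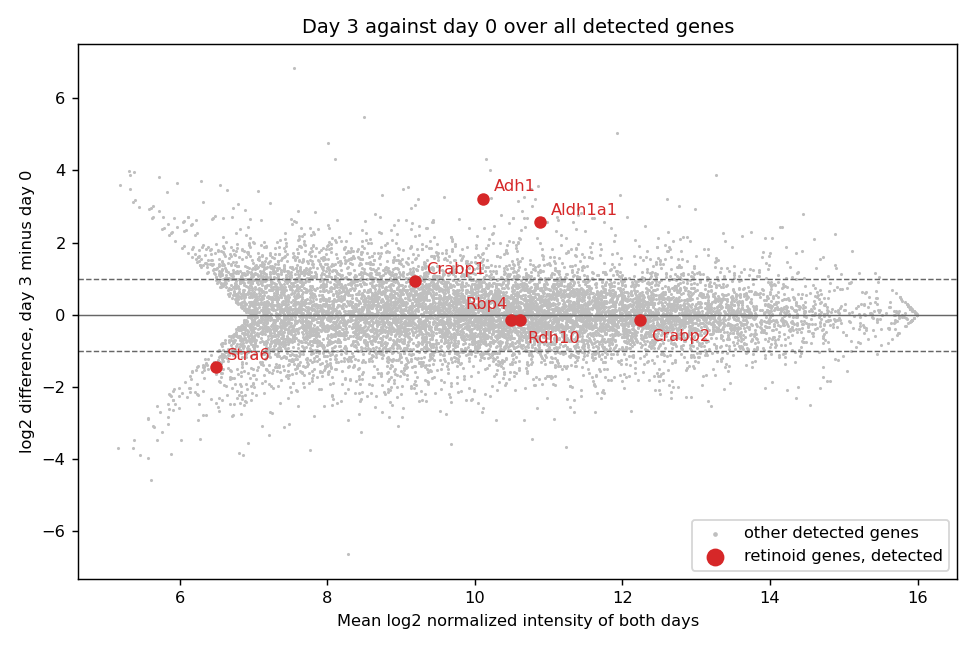
Log2 difference between the days (day 3 minus day 0) against the mean log2 normalized intensity for the 10656 detected genes in grey, with the 7 detected retinoid genes in red and dashed lines at 2-fold. Adh1 (3.22) and Aldh1a1 (2.56) lie near the upper edge of the cloud, Crabp1 lies just under the upper line, and Rbp4, Rdh10 and Crabp2 lie near 0.

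By count, 2 of the 7 detected members were at least 2-fold higher on day 3, where 12.8% of all detected genes were. Stra6 alone was 2-fold lower as read, where 10.3% were, and with signals below the threshold set to it the counts became 2 (10.2% of all detected genes) and 0 (8.51%). The median difference of the 7 was -0.14, against 0.03 over all detected genes. Because these members were picked for this contrast, their share is not read against the background. A limit of the array is that each member had a single probe. Among 188 genes at least 2-fold higher by their brightest probe and with further detected probes, 78 of 231 further probes (33.8%) were also 2-fold higher. For the 25 of them that were at least 4-fold higher, it was 17 of 29 (58.6%).

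The scaling of the arrays set the sign of differences near 0 and the size of the larger ones. Adh1 was between 2.76 and 3.85 over the 10 settings tried and Aldh1a1 between 2 and 3.09, both lowest under median scaling and highest without normalization. Settings that change only the detection rule or average a gene's probes could not move either gene. Each has 1 probe and passed the threshold on both days. Relative to the median of all detected genes, which was -0.49 under median scaling and 0.67 without normalization, Adh1 spanned 3.03 to 3.30 and Aldh1a1 2.42 to 2.59. Median scaling multiplies each array by a constant, so its values and the unnormalized ones come close on this scale by construction. Crabp1 spanned 0.83 to 1.01 on that relative scale. Rdh10, Rbp4 and Crabp2 lay below 0 in all 10 settings on the relative scale and above 0 in 1 of 10, the unnormalized values, as read. The same detection and probe-averaging settings could not move these genes either. Under median scaling they differed by -0.73, -0.72 and -0.81 as read, past their repeat-spot SDs of 0.42, 0.42 and 0.34. In the authors' deposited values, 6 of the 9 had an entry, and Adh1 gave 3.31 and Aldh1a1 2.57.

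**Figure D3:**
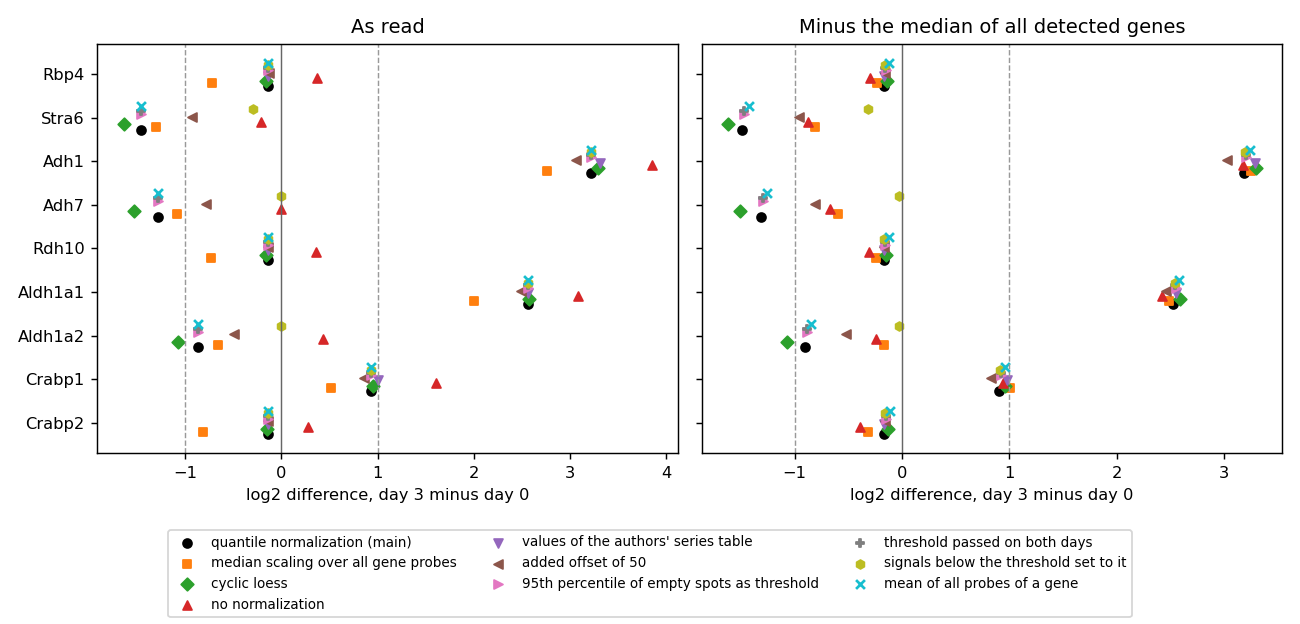
Log2 difference (day 3 minus day 0) of each retinoid gene under the 10 processing settings, as read on the left and after subtracting the median of all detected genes on the right. Adh1 and Aldh1a1 stay beyond 2-fold in every setting, and the spread between normalizations narrows on the right for the brighter genes. Settings that change only detection or the averaging of probes cannot move a gene with 1 probe that is detected on both days.

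The rest of the pathway was described from 7 lists that hold 118 genes in all, including the 9 members. Of these, 109 matched a probe, 62 were detected, 16 differed by 2-fold or more toward day 3 and 5 by as much toward day 0, or 14 and 2 with signals below the threshold set to it. The background shares were 12.8% and 10.3%, or 10.2% and 8.51% with signals set to the threshold. Under median scaling the counts were 10 higher and 13 lower, where 24.3% of all genes past 2-fold were higher, and without normalization they were 31 and 2, where 92.6% were, against 55.4% in the main setting. Each of the 21 genes past 2-fold kept its sign under every scaling and, where it had a value, in the authors' deposited values. Since these genes were picked for large differences, a kept sign is a weak check. Without normalization Aldh1b1 gave only -0.04 and Stra6 -0.21. The median of the 62 was 0.30, against 0.03 over all detected genes. The shares of 12.8% and 10.3% are also the background for the counts of each list below, many of which moved with the scaling. Genes named below that are past 2-fold were taken by the rule of the largest differences in each list.

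In the list of retinaldehyde oxidation, 3 of the 4 detected genes were higher on day 3, with a median of 1.85. Beside Aldh1a1 these were Aldh1a7, a rodent paralog that lies next to it on chromosome 19, and Aox1, an aldehyde oxidase that can act on retinaldehyde. Aldh1a7 read 1194 and 3611.5 after normalization (3.02-fold) and Aox1 563.5 and 2425.5 (4.30-fold). Aldh1a7 was 0.99 on the log2 scale under median scaling, just short of 2-fold. Aldh1a1 and Aldh1a7 are close copies of each other, and since the probe sequences were not analysed here their signals may not be separate. Aldh1b1, a mitochondrial aldehyde dehydrogenase, read 205.5 on day 0 and was below the threshold on day 3, at least 1.68-fold lower on the normalized scale. Its deposited readings of 141 and 137 differed by -0.04 on the log2 scale. Aldh1a3, the remaining ALDH1A enzyme, read 15.5 and 11.5, below the threshold.

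Among enzymes that interconvert retinol and retinaldehyde, 10 of 20 on the array were detected, 3 were higher and 1 was lower, with a median of 0.40. Beside Adh1, the higher genes were Rdh12, a retinaldehyde reductase best known from photoreceptors, and Rdh16, and both were below the threshold on day 0. Rdh12 read 52.5 and 282 (at least 2.31-fold) and Rdh16 78.5 and 167.5 (at least 1.37-fold). Dhrs9 was the lower gene, from 201.5 to 68.5 (at least 1.65-fold on the normalized scale). Its deposited readings of 138 and 99 differed less, by -0.48 on the log2 scale, and its other probe was likewise below the threshold on day 3. Rdh11, a microsomal retinaldehyde reductase, read 5192 and 9489.75, a difference of 0.87. In the other direction, Dhrs4 read 2006.5 and 1014.25, a difference of -0.98, or -0.46 without normalization. Its other probe gave -1.53. The Rdh genes form a family of similar sequences, and the same limit on separate signals applies to them.

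Genes of retinyl ester and carotenoid handling were detected in 4 of 12 cases, and 3 were higher, with a median of 1.62. These were the lipoprotein lipase gene Lpl, which also releases retinol from circulating esters, the hormone-sensitive lipase gene Lipe and the carboxylesterase gene Ces1f. Lpl gave 2.81 with its day 3 signal saturated, and its other probe gave 2.83. Lipe read 338 and 1070.5 (3.17-fold) and Ces1f 185 and 551.5 (2.98-fold). Dgat1, the other detected gene, read 3151 and 5626.5 (0.84). Lrat, the enzyme that makes retinyl esters for storage, read 17.5 and 12 and was below the threshold on both days.

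Among binding and uptake genes, 7 of 16 on the array were detected, and beyond Stra6 the one gene past 2-fold was Lrp1, an endocytic receptor with many ligands. Lrp1 read 15352 and 44513 (2.90-fold) by its brightest probe, and its other probe gave 0.45. Fabp5, a fatty acid-binding protein that can also carry retinoic acid, had -0.62 and -0.66 by its 2 probes. The receptor-like gene Stra6l stayed below the threshold (19.5 and 68.5), and Rbp7 and the transthyretin gene Ttr lay at the floor of 10 on both days.

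On the degradation side, 0 of 4 detected genes were higher and 1 was lower, with a median of 0.42. Cyp26a1 lay at the floor of 10 on both days, and Cyp26b1, the other retinoic acid hydroxylase with a probe here, read 149.5 and 228.25 (0.61, with 1.61 unnormalized). The brightest gene of the list, Cyp1b1, read 38879 and 49563.5 (0.35), and Cyp2s1 read 125.5 and 175.5 (0.48). Cyp1a1, a xenobiotic-inducible enzyme with activity toward retinoids, read 398 on day 0 and was at least 3.26-fold lower on day 3 on the normalized scale. Its deposited readings of 299 and 110 gave a smaller log2 difference of -1.44, and the authors' deposited values gave -1.54.

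**Figure D4:**
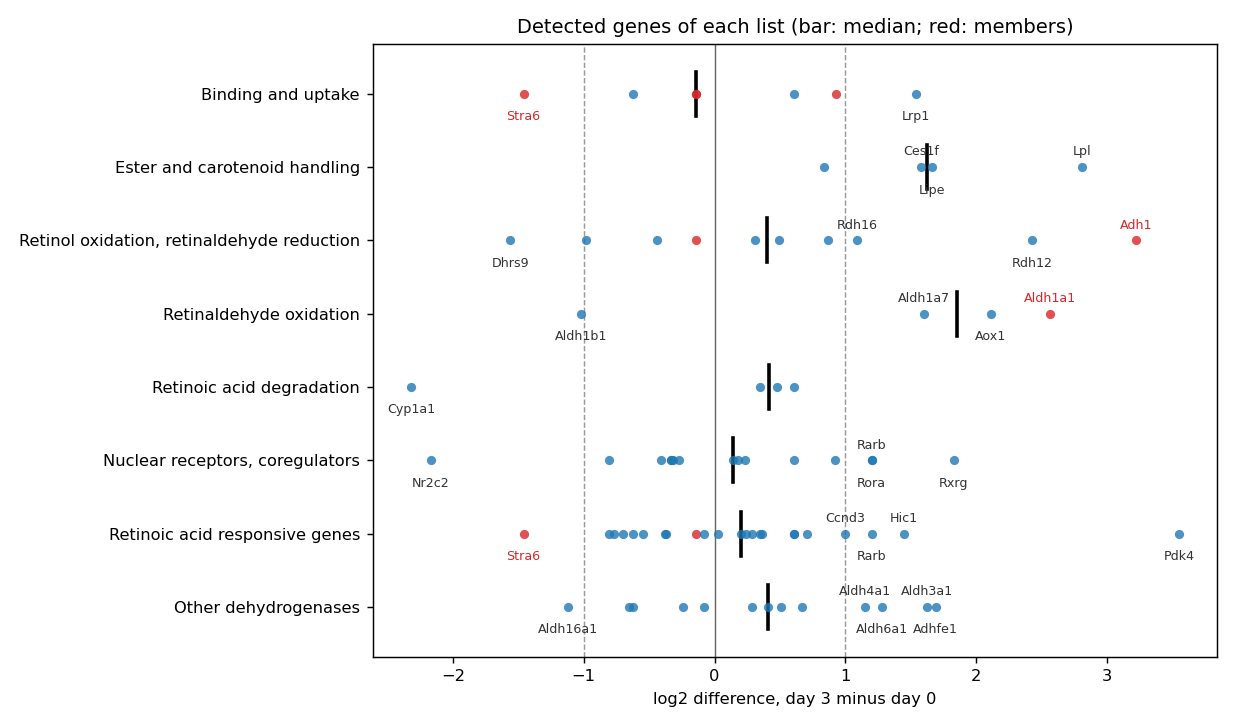
Log2 difference (day 3 minus day 0) of the detected genes of the 7 retinoid lists and of other alcohol and aldehyde dehydrogenases, with members in red, a bar at each list's median, dashed lines at 2-fold and names for genes past them. The median bars of retinaldehyde oxidation (1.85) and ester handling (1.62) lie to the right of 2-fold, each over 4 genes, and those of the other lists lie between -0.14 and 0.42.

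Nuclear receptors and coregulators had 15 of 20 genes detected, 3 higher and 1 lower, with a median of 0.14. These counts became 1 and 3 under median scaling, and 5 and 1 without normalization. Rarb, a retinoic acid receptor gene that retinoic acid itself is known to induce, read 439 and 1009 (2.30-fold), and its other probe was below the threshold. Rora, an orphan receptor gene, read 2257 and 5173.5 (2.29-fold). Rxrg passed the threshold on day 3 only, at least 1.33-fold higher. Nr2c2, which encodes the testicular receptor 4, read 642.5 and 142.5 (4.51-fold lower). The differences of Rara (-0.32), Rarg (-0.41), Rxra (0.14) and Rxrb (0.23) each changed sign in at least 1 scaling.

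A list of genes known to respond to retinoic acid had 23 of 34 members detected, with a median of 0.20. Of the 23, 4 were higher and 1 was lower, where 12.8% and 10.3% of all detected genes were. The 4 were Rarb, the kinase gene Pdk4 (3.55), the transcriptional repressor gene Hic1, which read 572 and 1559 (2.73-fold), and the cyclin gene Ccnd3 at 1.00, whose other probe read 189.5 on day 0 and 115.5, below the threshold, on day 3. Of these, Pdk4 also answers to other nuclear receptors. The responsive genes Dhrs3, Cyp26a1, Rarres1, Stra8 and Cdx1 lay at the floor of 10 on both days, and Tgm2, the tissue transglutaminase gene, differed by 0.36. Members Crabp2 (-0.14) and Stra6 are also on this list. Its counts became 1 higher and 5 lower under median scaling, where 7.78% and 24.3% of all detected genes were. Without normalization they became 9 and 0, where 35.7% and 2.85% were.

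Dehydrogenases outside the retinoid pathway gave a comparison of related enzymes. Of 13 detected, 4 were higher and 1 was lower, with a median of 0.41. The higher genes were Adhfe1 (at least 1.09-fold), Aldh3a1 (3.08-fold), Aldh6a1 (2.44-fold) and Aldh4a1 (2.22-fold), and Aldh16a1 was 2.18-fold lower. Aldh3a1 read 125.5 on day 0, just above the threshold of 122. The counts became 2 and 2 under median scaling, where 7.78% and 24.3% of all detected genes were. Without normalization they became 6 and 0, where 35.7% and 2.85% were. The mitochondrial enzyme gene Aldh2, which clears acetaldehyde, read 34840 and 42629, a difference of 0.29. Whether the retinoid members stood apart from these relatives was not tested.

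Markers of other cell types are given beside these values, since in a bulk sample more cells of a type and more RNA per cell cannot be told apart. Sums over a list add probes of unlike brightness, so 1 bright gene can set them. Of 12 adipocyte markers on the array 3 were detected and 2 were higher, Lpl and Lipe, while Slc2a4 read 135.5 and 173. The summed signal of the list was 9094 on day 0 and 60880 on day 3. Nearly all of it was the single gene Lpl (8480 and 59293), saturated on day 3. The fat cell genes Fabp4 (10.5 and 59.5) and Adipoq (12 and 120.5) were below the threshold. Of 10 macrophage markers 5 were detected, with sums of 17478 and 43710 that were mostly Cd14 (16036 and 39698.5). Cd14 and Itgam (703.5 and 3556) were higher and Csf1r was lower (269.5 and 51.5). Cd68 (198.5 and 268) and Aif1 (131.5 and 78.5) stayed within 2-fold, and the defining genes Ptprc and Cd163 lay at the floor. Of 9 smooth muscle and stellate cell markers 9 were detected, 4 higher and 4 lower, with sums of 47216 and 23942. Acta2 made up most of both sums (44635.5 and 16335), while Rgs5 read 590 and 5490 and Des 389 and 912. Of 7 endothelial markers 4 were detected, with sums of 954 and 1010. Pecam1 was higher (189.5 and 568.5) and Kdr lower (168 and 17.5), while Eng (330 and 235.5) and Tie1 (125.5 and 125) stayed within 2-fold. Of 8 epithelial markers 3 were detected, with sums of 1109 and 1116. Krt14 was higher (150.5 and 387.5), while the brightest, Cldn4 (514.5 and 480.5), and Krt18 (148 and 114.5) stayed within 2-fold. Epcam lay at the floor. Of 8 neural markers 6 were detected, with sums of 1632 and 2497. Ncam1 (452 and 1313) and Map2 (10.5 and 128) were higher, and Nes (370.5 and 182.5) and Tubb3 (347 and 129.5) were lower. Olig2 (304 and 581.5) and Sox2 (67 and 127) stayed within 2-fold. The part of these cell types in the differences of Adh1 and Aldh1a1 was not tested.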

How the data were processed

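Messenger RNA was measured on 2 single-colour arrays (Cy5), 1 per day, grouped by the stage in the labels. Per the labels, 1 µg of total RNA was amplified and labelled by Phalanx. The deposited per-sample tables hold linear intensities for 39200 spots, of which 29922 are gene probes. The scanner was not given in the sources used here, nor were the image software and the background method. The authors' deposited series table holds normalized intensities for 11482 probes and served as an alternative.

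Gene probes were quantile normalized with limma 3.58.1 in R 4.3.3, set to a floor of 10 and put on the log2 scale. Signals of 65000 or more counted as saturated. Platform symbols were updated through RefSeq's GRCm38.p6 gene table: of 21020 named probes, 17558 symbols were current, 3410 were synonyms and 52 were kept as given. Each gene was represented by its brightest probe, by mean log2 signal. Folds against a signal below 122 or a saturated one are lower bounds. The repeat-spot SD applies to a day 3 minus day 0 difference and was taken from control features printed as 5 or 6 spots, as the median over features (0.34 to 0.43 over signal bins), or pooled over them (0.58 to 0.85). It leaves out variation between cultures and hybridizations, and the number of arrays limits the precision. Normalization was tested on a simulated copy of the day 0 array, scaled by a constant and with 200 bright probes changed by known folds. In that copy dim signals were raised to a common level and no distortion varied with intensity, so the test cannot speak for dim probes.

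The members and lists were chosen with earlier results of these data known. Named genes were all members, the up to 4 detected genes of each pathway list with the largest differences and any that a count of 5 or fewer refers to, and the up to 3 brightest markers of each cell type. Other genes named (Aldh1a3, Rdh11, Lrat, Fabp5, Stra6l, Rbp7, Ttr, Cyp26a1, Cyp26b1, the RAR and RXR genes, Tgm2 and others at the floor, Aldh2 and the marker genes Fabp4, Adipoq, Ptprc, Cd163, Epcam, Rgs5 and those past 2-fold) were chosen after their values were seen. Dhrs4 and the markers Aif1 and Sox2 were likewise named after their values were seen. With 2 samples every correlation between genes is complete, so none were named for a like pattern. The alternatives were median scaling, cyclic loess with 3 iterations, no normalization, the authors' values, an offset of 50, other detection rules and the mean of all probes. Promoter sequences came from RefSeq, with 7 of 9 members matched.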

Additional observations from a re-analysis of the deposited data

How the results depend on the processing

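The count of 2 higher members was 2 or 3 in every setting, with Crabp1 the third without normalization and in the authors' values. Of all detected genes, the share higher was 7.78% under median scaling, 35.7% without normalization and 9.91% in the authors' values. The share lower ran from 2.85% without normalization to 24.3% under median scaling. The count of 1 lower member was 0 without normalization, in the authors' values, with an offset of 50, with the threshold required on both days and with signals set to it, and 2 under cyclic loess and with the 95th percentile of empty spots as threshold. Of the 16 higher and 5 lower pathway genes, median scaling gave 10 and 13 and no normalization gave 31 and 2. In the authors' values 2 pathway genes were lower (8.46% of all detected genes), with the offset 3 (8.35%) and with the empty-spot threshold 10 (11.5%). With the threshold on both days 1 was lower (8.43%), and with signals set to it 2 were (8.51%). The settings that require more signal test fewer genes, and for the other changes the cause was not tested. Of 144 counts over single lists, 96 stayed within 1.5 times of the main count and 48 did not. No paired analysis was possible because each day has 1 sample. Dim probes were the least certain, since Adh7 went from equal deposited readings to -1.28 by normalization alone.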

Other observations

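Adh1 and Aldh1a1 each lie beside related genes. Adh1 and Adh7 are next to each other on mouse chromosome 3, in a row that goes on with Adh6a, Adh6b, Adh4 and Adh5. Of the 8 protein-coding genes nearest to Adh1, 3 were detected, 0 were at least 2-fold higher and 1, the methyltransferase gene Trmt10a, was lower (-1.19), where 12.8% and 10.3% of all detected genes were. With 3 genes detected, nothing is read from these counts. Adh5, the formaldehyde-oxidising class that most cells express, read 18856.5 and 23399.5 by its brightest probe (0.31) and gave -1.22 by its other probe. Adh6a and Adh4 were below the threshold on both days.

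Around Aldh1a1 on chromosome 19, 5 of 8 neighbours were detected and Aldh1a7 was the only one past 2-fold. The annexin gene Anxa1 on its other side differed by -0.06. Of the 8 neighbours of Crabp1 on chromosome 9, 6 were detected and 0 were past 2-fold in either direction, where 23% of all detected genes were. These counts are too small to set against that share. The neighbours were looked at after the values were seen, and no test was run on them.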
